A study of Homo sapiens with 9 samples.

Results

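TNFRSF1B and 9 further genes of the tumor necrosis factor (TNF) receptor family were followed in MHCC97L hepatocellular carcinoma (HCC) cells and in the drug-resistant lines derived from them. The 10 genes are TNFRSF1A, TNFRSF1B, TNFRSF10A, TNFRSF10B, TNFRSF10D, TNFRSF11B, TNFRSF12A, TNFRSF21, CD40 and FAS, found by symbol among the 20030 genes of the count and FPKM tables. They were chosen from earlier results of the same libraries, in which the level of TNFRSF1B stood out, so that their differences between lines are descriptions. No p-value is given for them, and where a fit is said to call a member, this only shows how far the call hangs on single libraries. FPKM is a fragment count scaled by the length of the transcript and the size of the library and is used below to compare genes with each other. CPM is a read count scaled by the normalized size of the library and is used to compare libraries.

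RNA was sequenced in 3 libraries for each of 3 lines, 9 libraries in all. MHCC97L was the untreated parental line. MHCC97L-Src was obtained by raising the concentration of saracatinib, an inhibitor of Src family kinases, until the cells grew stably at 4 μmol/L. MHCC97L-Oxa was stably resistant to 2 μmol/L of oxaliplatin, a platinum compound that damages DNA. Each resistant line is 1 selected line, and the labels do not say whether the drug was in the medium at harvest. The study describes the libraries of MHCC97L and MHCC97L-Src as independent experiments, while the labels do not say whether those of a line came from separate cultures, and adjusted p-values measure the spread between these libraries. In bulk RNA, fewer cells that express a gene and less RNA per cell cannot be told apart.

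TNF and its relatives are ligands that bind receptors with cysteine-rich extracellular repeats. TNFRSF1A (TNFR1), FAS, TNFRSF10A and TNFRSF10B (the TRAIL receptors DR4 and DR5) and TNFRSF21 (DR6) carry a death domain through which adaptors and caspases can be recruited. TNFRSF1B (TNFR2), CD40 and TNFRSF12A (the TWEAK receptor Fn14) lack a death domain, bind TRAF proteins and signal to NF-κB. TNFRSF10D has a truncated death domain, and TNFRSF11B (osteoprotegerin) is secreted. TNFR1 is found on most cells, whereas TNFR2 is best known from lymphocytes, myeloid cells and endothelium.

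The region before the start of TNFRSF1B is shown next to that of TNFRSF1A, because both are receptors for TNF itself, and of these TNFRSF1B differed most between the lines and TNFRSF1A little. Both sequences cover the 250 bases before the RefSeq start in GRCh38.p14, 5′ to 3′ on the strand of the gene, at chr1:12166741-12166990 on the + strand for TNFRSF1B and chr12:6342077-6342326 on the - strand for TNFRSF1A. Capitals mark matches on either strand to a GC box (GGGCGG), an NF-κB type motif (GGGNNNNNCC), an AP-1 motif (TGANTCA) or a TATA motif (TATAAA), and overlapping matches run together.
TNFRSF1B: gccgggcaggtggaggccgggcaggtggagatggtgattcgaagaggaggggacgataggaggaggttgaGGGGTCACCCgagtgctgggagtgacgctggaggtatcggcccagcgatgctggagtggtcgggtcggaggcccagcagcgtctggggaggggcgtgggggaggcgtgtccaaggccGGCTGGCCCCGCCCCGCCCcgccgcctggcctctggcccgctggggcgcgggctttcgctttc
TNFRSF1A: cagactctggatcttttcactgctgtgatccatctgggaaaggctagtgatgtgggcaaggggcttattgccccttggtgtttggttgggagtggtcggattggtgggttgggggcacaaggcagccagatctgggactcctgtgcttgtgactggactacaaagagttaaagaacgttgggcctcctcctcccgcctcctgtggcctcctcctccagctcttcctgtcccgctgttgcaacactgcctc
The TNFRSF1B window held 2 GC boxes, at 55 and 50 bases before the start, and 3 NF-κB type matches, at 180, 63 and 59 bases before it, of which those at 63 and 59 overlap the GC boxes. None of the 4 motifs matched in the TNFRSF1A window. The GC content was 72.4% with 22 CG dinucleotides for TNFRSF1B and 56.8% with 4 for TNFRSF1A, next to a median GC content of 58% over all promoters. Of 35116 promoter windows of this length, 42.6% held the GC box, 54.4% the NF-κB type motif, 6.57% the AP-1 motif and 10.7% the TATA motif, so the first pair is common, and a match describes letters and not a bound site.

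Between 16970486 and 18209213 reads were counted per library. MHCC97L replicate 1 stood apart from the other libraries. Its level relative to the mean of the 9 libraries fell with the GC content of genes (Spearman's rho across genes, which are not independent, -0.781, against -0.255 to 0.699 in the others). The correlation of MHCC97L replicates 1 and 2 was 0.859, the lowest of either within the line, so this value does not single out replicate 1. Differences against MHCC97L are also given without replicate 1 where that changes what is seen. The label of a liver cancer line was checked against markers. Of 9 hepatocyte and hepatoma markers, 2 in MHCC97L and 4 in each resistant line had more than 3 counts in every library. ALB, AFP, APOB and TTR, which hepatocytes express, were at 0 counts in all 9 libraries, which allows up to 3 counts in each, and APOA1 had at most 4 counts. HNF4A had more than 3 counts in every MHCC97L-Oxa library but not in every MHCC97L library, and it passed the filter on low counts in no comparison. SERPINA1, which hepatocytes also express, had 1, 1 and 1 counts in the parental line, 31, 14 and 14 in MHCC97L-Oxa, where it rose (edgeR adjusted p = 0.0323), and 22, 9 and 10 in MHCC97L-Src, where it was not tested against MHCC97L because it did not pass the filter. Between the resistant lines its log2 fold change was -0.42 and it was not called. The epithelial keratin genes KRT8 and KRT18 had at least 28881 and 22160 counts, and both were higher in MHCC97L-Src than in MHCC97L-Oxa (log2 fold change 0.87, edgeR adjusted p = 0.0136, and 0.91, adjusted p = 0.00471). Compared to MHCC97L, KRT8 had log2 fold changes of -0.07 in MHCC97L-Src and -0.94 in MHCC97L-Oxa. KRT18 had 0.58 and -0.33 in the same order, and neither gene was called there. For leukocytes, which express TNFR2, PTPRC, CD3E, MS4A1 and LYZ were at 0 in all libraries, and 3 of 9 marker genes in MHCC97L and 4 of 9 in each resistant line had more than 3 counts in every library. Their summed CPM was 54.7 to 93.8 in the parental line, 154 to 159 in MHCC97L-Oxa and 77.4 to 111 in MHCC97L-Src. CD14, a monocyte gene that was among them, rose in both resistant lines (log2 fold change 2.58, edgeR adjusted p = 0.0236 in MHCC97L-Src, and 2.24, adjusted p = 0.0428 in MHCC97L-Oxa). CSF1R, a receptor of macrophages, went the other way, with 170, 233 and 221 counts in the parental line, 140, 134 and 129 in MHCC97L-Oxa and 29, 56 and 39 in MHCC97L-Src, a log2 fold change of -2.20 (edgeR adjusted p = 0.0544) there and of -1.57 (adjusted p = 0.0135) between the resistant lines. CD68 was lower in MHCC97L-Src than in MHCC97L-Oxa (-0.75, adjusted p = 0.0116). Compared to MHCC97L its log2 fold change was 0.36 in MHCC97L-Src (edgeR adjusted p = 0.419) and 1.11 in MHCC97L-Oxa (adjusted p = 0.0961). Of 5 endothelial markers KDR was at 0 in every library and TEK at no more than 2 counts, whereas CDH5 rose from 17, 28 and 22 counts to 188, 196 and 236 in MHCC97L-Src (log2 fold change 3.30, adjusted p = 0.0139) and had 8, 12 and 7 in MHCC97L-Oxa, 4.61 lower on the log2 scale than MHCC97L-Src (adjusted p = 1.70e-05). The summed CPM of the endothelial list was 2.23 to 2.74 in the parental line, 1.44 to 1.79 in MHCC97L-Oxa and 12.2 to 15.1 in MHCC97L-Src. Of 5 fibroblast markers COL1A2 was at 0 in both resistant lines, and the summed CPM was 145 to 207 in the parental line, 166 to 180 in MHCC97L-Oxa and 93.5 to 99.1 in MHCC97L-Src, where DCN and PDGFRB were lower than in MHCC97L-Oxa (-1.89, adjusted p = 0.00294, and -1.32, adjusted p = 0.00395). The part of these genes in the levels of the receptors was not tested.

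TNFRSF1B was nearly silent in wild-type MHCC97L and was higher in both resistant lines, far more so in MHCC97L-Src. It had 17, 17 and 11 counts in the parental line, 93, 84 and 69 in MHCC97L-Oxa and 799, 880 and 843 in MHCC97L-Src. No library of one line reached the values of another, and the order was the same with CPM and with FPKM. The CPM was 0.826 ± 0.194 (SD, n = 3) in the parental line, 4.52 ± 0.651 in MHCC97L-Oxa and 50.3 ± 6.16 in MHCC97L-Src. Per length, the level was 0.134 ± 0.0369 FPKM in the parental line, 0.703 ± 0.0937 in MHCC97L-Oxa and 7.42 ± 0.507 in MHCC97L-Src. The gene (NCBI gene 7133) lies at chr1:12167003-12209228 on the + strand of GRCh38, and its exons share 36 bases with the microRNA gene MIR7846, which overlaps it on the same strand.

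Compared to MHCC97L, the log2 fold change of TNFRSF1B was 5.92 (SE 0.40) in MHCC97L-Src, a 60.4-fold difference and the 6th largest among 12037 genes tested. In MHCC97L-Oxa it was 2.44 (SE 0.41), or 5.43-fold, the 56th largest of 12064. Between the resistant lines MHCC97L-Src exceeded MHCC97L-Oxa by 3.47 (SE 0.18), or 11.1-fold, the 10th largest of 11994. The comparisons with MHCC97L share its 3 libraries, in which the counts of TNFRSF1B are low. With any 1 library left out it was 5.74 to 6.12 in MHCC97L-Src, and a correction for GC content and gene length gave 5.55 there and 2.22 in MHCC97L-Oxa. In MHCC97L-Oxa the difference no longer met an adjusted p under 0.05 without MHCC97L replicate 3 or without any 1 of the MHCC97L-Oxa libraries, with log2 fold changes of 2.27 to 2.67 over all libraries left out and 2.58 without MHCC97L replicate 1. The fits that lost the call called at most 0.0164% of all genes, against 0.953% with all libraries. It was also not called with the replicate number as a block, where 0.763% of all genes were. The same held on filtered FPKM with a pseudocount of 1 or 0.1, where 2.58% and 2.71% were called.

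The listed genes next to TNFRSF1B on chromosome 1 did not share its pattern. TNFRSF8 (CD30), the neighbour on one side and also a TNF receptor family gene, had at most 8 counts in any library. VPS13D, a gene of lipid transport between organelles and the neighbour on the other side, had 932, 282 and 451 counts in the parental line, 363, 463 and 357 in MHCC97L-Oxa and 469, 307 and 380 in MHCC97L-Src. Both were named for their position and their order comes from the RefSeq gene table.

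**Figure D1:**
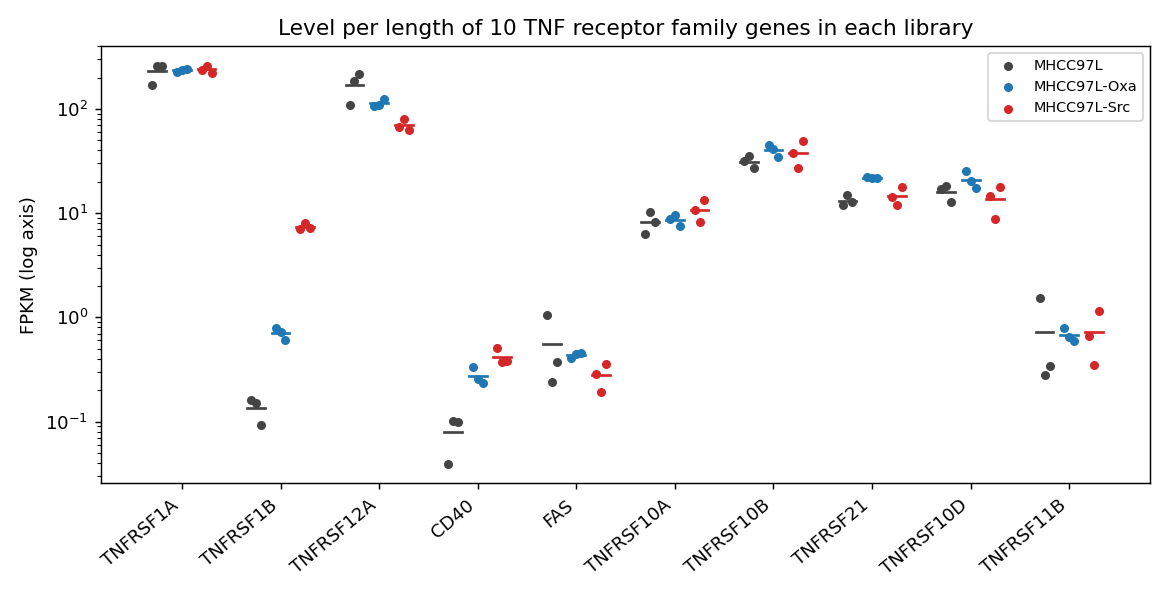
FPKM on a log axis of the 10 TNF receptor family genes, with 3 points per line for the libraries and a bar for their mean. TNFRSF1B moves from a mean of 0.134 in MHCC97L to 0.703 in MHCC97L-Oxa and 7.42 in MHCC97L-Src, while TNFRSF1A lies between 171 and 260 in every library.

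TNFRSF1A, the other receptor for TNF, was the most abundant of the 10 genes per length in every line and differed little between lines. It had 9195, 14434 and 14619 counts in the parental line, 12926, 13249 and 13424 in MHCC97L-Oxa and 13117, 13872 and 12475 in MHCC97L-Src. The lowest value was that of MHCC97L replicate 1, and the other 8 libraries lay between 12475 and 14619. The log2 fold change was 0.15 (SE 0.28) in MHCC97L-Src and 0.04 (SE 0.25) in MHCC97L-Oxa compared to MHCC97L, and 0.11 (SE 0.12) between the resistant lines. Without MHCC97L replicate 1 the differences from MHCC97L were -0.03 and -0.09, and corrected for GC content and length -0.23 in both lines. TNFRSF1A lies at chr12:6328757-6342114 on the - strand, and its exons overlap no other annotated gene.

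The ratio of the receptors for TNF was taken per library. TNFRSF1B amounted to 0.0933%, 0.0582% and 0.0358% of the TNFRSF1A FPKM in the MHCC97L libraries, to 2.99%, 3.10% and 3.21% in MHCC97L-Src and to 0.345%, 0.304% and 0.247% in MHCC97L-Oxa. The ranges of the lines did not overlap, yet TNFRSF1A mRNA remained the far more abundant of the pair in all 9 libraries. The mean was 0.0624% ± 0.0290 (SD, n = 3) in the parental line, 0.299% ± 0.0490 in MHCC97L-Oxa and 3.10% ± 0.107 in MHCC97L-Src.

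**Figure D2:**
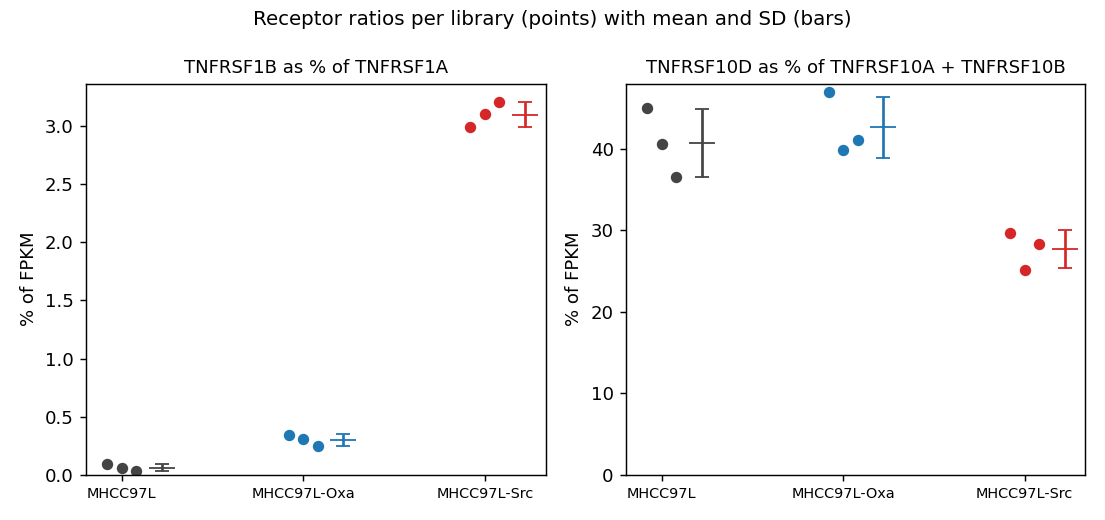
Ratio of FPKM values in % for each library (points) with the mean and SD of the 3 libraries of a line (bars), for TNFRSF1B relative to TNFRSF1A and for TNFRSF10D relative to the sum of TNFRSF10A and TNFRSF10B. The TNFRSF1B ratio is 2.99% to 3.21% in MHCC97L-Src and at most 0.345% in the other libraries, and the TNFRSF10D ratio is 25.2% to 29.6% in MHCC97L-Src and 36.6% or more elsewhere.

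TNFRSF12A and CD40, which like TNFRSF1B signal through TRAF proteins, differed in opposite directions. TNFRSF12A was the second most abundant member and was lower in MHCC97L-Src. Its counts were 1557, 2680 and 3201 in the parental line, 1604, 1601 and 1775 in MHCC97L-Oxa and 919, 1137 and 896 in MHCC97L-Src. Every MHCC97L-Src library lay under every library of the other lines. On the log2 scale the difference was -1.22 (SE 0.34) in MHCC97L-Src and -0.59 (SE 0.30) in MHCC97L-Oxa, and -0.63 (SE 0.16) for MHCC97L-Src relative to MHCC97L-Oxa, where the difference met an adjusted p under 0.05 without MHCC97L-Src replicate 2, at -0.84. That fit called 8.51% of all genes. MHCC97L replicate 1 was the lowest of its line, and without it the values were -1.46 in MHCC97L-Src and -0.77 in MHCC97L-Oxa, both with an adjusted p under 0.05. Without that library 5.52% and 18.5% of all genes were called, in this order. TNFRSF12A lies at chr16:3018445-3022383 on the + strand, has a GC content of 64.2%, above the median of 49.2% over the genes tested, and shares 40 exonic bases with CLDN6 on the other strand.

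CD40, a receptor best known from B cells and antigen-presenting cells, was scarce but higher in both resistant lines. It had 10, 17 and 11 counts in the parental line, 25, 26 and 20 in MHCC97L-Oxa and 32, 30 and 32 in MHCC97L-Src. The lines did not overlap in CPM. The differences on the log2 scale were 1.40 (SE 0.45) in MHCC97L-Src, 0.88 (SE 0.43) in MHCC97L-Oxa and 0.51 (SE 0.30) between them. In MHCC97L-Src it met an adjusted p under 0.05 without MHCC97L replicate 2, at 1.77, where 27.8% of all genes did. CD40 lies at chr20:46118272-46129863 on the + strand. Its level stayed under 0.51 FPKM in every library, far below that of TNFRSF1B in MHCC97L-Src.

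Among the death receptors, the TRAIL receptors TNFRSF10A and TNFRSF10B had CPM ranges that overlapped between all lines. TNFRSF10B, the more abundant, had 2722, 2954 and 2290 counts in the parental line, 3935, 3558 and 3041 in MHCC97L-Oxa and 3205, 2211 and 4172 in MHCC97L-Src. TNFRSF10A had 297, 461 and 364 counts in the parental line, 415, 444 and 360 in MHCC97L-Oxa and 452, 335 and 583 in MHCC97L-Src. MHCC97L-Src replicate 2 was the lowest of its line and replicate 3 the highest for both genes. Their differences compared to MHCC97L, on the log2 scale, were 0.35 (SE 0.25) and 0.37 (SE 0.35) in MHCC97L-Src and 0.40 (SE 0.20) and 0.11 (SE 0.31) in MHCC97L-Oxa. CPM of TNFRSF10B was 128 to 172 in the parental line, 170 to 218 in MHCC97L-Oxa and 144 to 229 in MHCC97L-Src.

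TNFRSF10D binds TRAIL without passing on a death signal and was lower in MHCC97L-Src than in MHCC97L-Oxa. Its counts were 1064, 1093 and 791 in the parental line, 1584, 1236 and 1104 in MHCC97L-Oxa and 860, 513 and 1096 in MHCC97L-Src. In CPM, the MHCC97L-Src libraries overlapped with MHCC97L and lay under all of MHCC97L-Oxa. Its log2 fold change was -0.17 (SE 0.30) in MHCC97L-Src, 0.41 (SE 0.24) in MHCC97L-Oxa and -0.58 (SE 0.22) between them, where it met an adjusted p under 0.05 without MHCC97L-Src replicate 3, at -0.77, as did 13.3% of all genes. Corrected for GC content and length, the value in MHCC97L-Src compared to MHCC97L was 0.11, of the opposite sign. Relative to TNFRSF10A and TNFRSF10B together, its FPKM was 40.7% ± 4.18 (SD, n = 3) in the parental line, 42.6% ± 3.75 in MHCC97L-Oxa and 27.7% ± 2.30 in MHCC97L-Src, so that in this ratio the MHCC97L-Src libraries lay under all 6 others. TNFRSF10A, TNFRSF10B and TNFRSF10D are close relatives that lie near each other on chromosome 8, and reads from stretches they share could be divided between them in counting. TNFRSF10A also overlaps antisense transcripts, and TNFRSF10B shares 67 exonic bases with RHOBTB2.

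TNFRSF21 was the member that was higher in MHCC97L-Oxa than in either of the other lines. It had 981, 1209 and 1055 counts in the parental line, 1890, 1781 and 1794 in MHCC97L-Oxa and 1194, 943 and 1455 in MHCC97L-Src. The MHCC97L-Oxa libraries lay close together and above all others. Its log2 fold change was 0.75 (SE 0.21) in MHCC97L-Oxa, 0.24 (SE 0.25) in MHCC97L-Src and -0.51 (SE 0.13) for MHCC97L-Src relative to MHCC97L-Oxa. Without MHCC97L replicate 1 it was 0.73 in MHCC97L-Oxa, with an adjusted p under 0.05, and without replicate 2 it was 0.96, again under 0.05. Of all genes, 18.5% and 22.1% were called in these fits. The difference between the resistant lines was -0.43 without MHCC97L-Src replicate 2 and -0.60 without replicate 3, both under 0.05, where 8.51% and 13.3% of all genes were called. TNFRSF21 lies at chr6:47231532-47309905 on the - strand.

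FAS and TNFRSF11B were dominated by a single parental library. FAS had 200, 43 and 75 counts in the parental line, 79, 90 and 100 in MHCC97L-Oxa and 57, 37 and 64 in MHCC97L-Src. The value of 200 was that of MHCC97L replicate 1. The log2 fold change of FAS in MHCC97L-Src was -0.87 (SE 0.58) with that library and -0.06 without it, and in MHCC97L-Oxa it was -0.20 (SE 0.55) with it and 0.66 without. With all libraries but corrected for GC content and length, these values were 0.34 and 0.71. FAS had a log2 fold change of -0.67 (SE 0.26) between the resistant lines, with CPM of 2.41 to 3.51 in MHCC97L-Src and 4.38 to 5.58 in MHCC97L-Oxa. FAS has a GC content of 39.1%, lies at chr10:88990582-89015785 on the + strand, and shares 380 exonic bases with ACTA2 on the other strand, which had 84 to 158 counts in the parental line, 214 to 258 in MHCC97L-Oxa and 138 to 167 in MHCC97L-Src. The libraries were stranded, but whether counting used the strand is not given in the sources used here.

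TNFRSF11B, the secreted decoy for TNFSF11 and TRAIL, had 75, 14 and 17 counts in the parental line, 41, 37 and 31 in MHCC97L-Oxa and 32, 18 and 59 in MHCC97L-Src. MHCC97L replicate 1 again held the highest value, and all lines overlapped. Its log2 fold change was 0.16 (SE 0.70) in MHCC97L-Src and 0.09 (SE 0.63) in MHCC97L-Oxa, and 1.30 and 1.27, in the same order, without that library. The difference between MHCC97L-Src and MHCC97L-Oxa was 0.08 (SE 0.39). The GC content of TNFRSF11B is 42.5%.

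**Figure D3:**
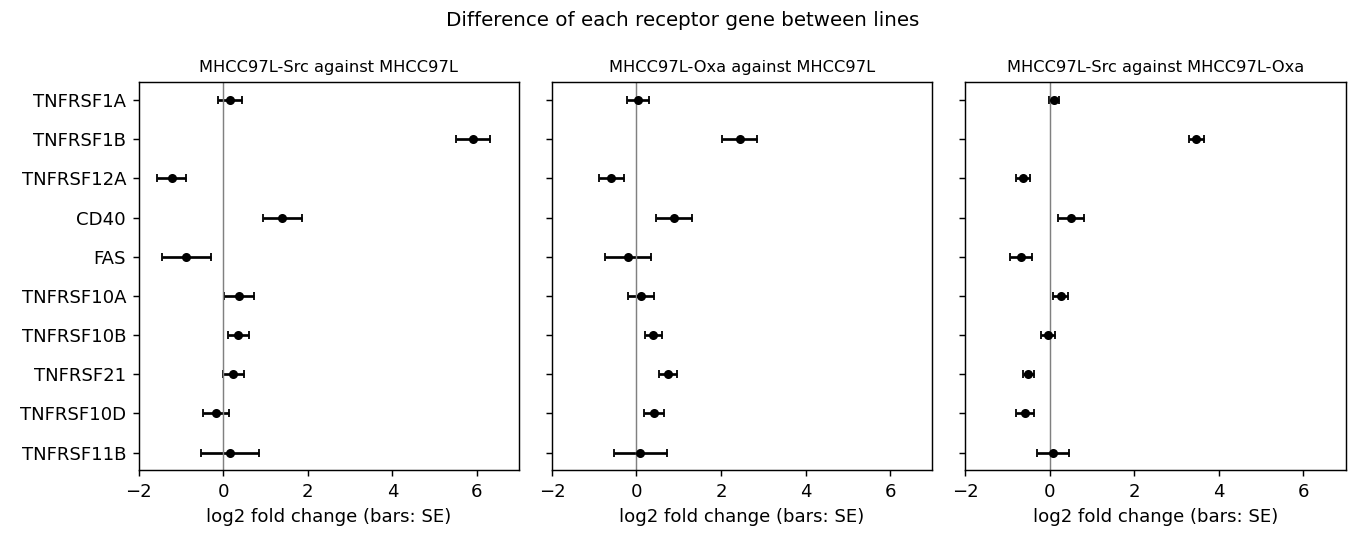
Log2 fold change of each of the 10 genes (points) with its standard error (bars) in the 3 comparisons, fitted on the counts of 6 libraries each. TNFRSF1B lies at 5.92, 2.44 and 3.47, TNFRSF12A at -1.22, -0.59 and -0.63, and the other members between -0.87 and 1.40.

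All 10 genes passed the filter on low counts in each comparison. At an adjusted p under 0.05, 1 of the 10 was called in MHCC97L-Src compared to MHCC97L, where 2.13% of all genes tested were called, and 1 of the 10 in MHCC97L-Oxa, where 0.953% were. Between the resistant lines 1 of the 10 was called, next to 4.64% of all genes. An unadjusted p under 0.05 was met by 29.5%, 22.4% and 19.5% of all genes in the 3 comparisons, in this order, and DESeq2 called 17.6%, 7.4% and 7.0%, next to which the counts for the lists described further on are to be read. The member called at edgeR's adjusted p under 0.05 was TNFRSF1B in each comparison, and it was higher, next to 1.43%, 0.771% and 2.12% of all genes called higher. Because the genes were chosen with these contrasts known, nothing is read from these counts. The study's criterion combined an unadjusted p under 0.05 with a change of more than 1 in either direction on the log2 scale. The members that met it were TNFRSF1B, CD40 and TNFRSF12A in MHCC97L-Src, 3 of 10 where 24.6% of all genes met it. TNFRSF1B alone met it in MHCC97L-Oxa and between the resistant lines, where 16.2% and 4.01% of all genes did. CPM ranges did not overlap for 3 members in MHCC97L-Src (29.8% of all genes), 3 in MHCC97L-Oxa (28.1%) and 6 between the resistant lines (26.7%). The median log2 fold change of the 10 genes was 0.20, 0.25 and 0.02 in the 3 comparisons, beside -0.16, -0.19 and -0.02 over all genes tested.

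In order of FPKM, TNFRSF1A, TNFRSF12A and TNFRSF10B held the first places in all lines. In MHCC97L they averaged 229 ± 50.4, 170 ± 54.6 and 31.3 ± 3.94 FPKM (SD, n = 3), and the ranges of the first pair overlapped. In MHCC97L-Src they averaged 240 ± 17.5, 70.0 ± 9.65 and 38.1 ± 11.1 FPKM, with no overlap between neighbours. In MHCC97L-Oxa they averaged 236 ± 7.86, 113 ± 9.57 and 40.4 ± 5.07 FPKM, again without overlap. TNFRSF10D and TNFRSF21 came next in all lines, with ranges that overlapped each other, followed by TNFRSF10A. TNFRSF1B stood at place 9 in MHCC97L, where its range overlapped that of CD40 in the last place. It stood at place 7 in MHCC97L-Src, between TNFRSF10A and TNFRSF11B and apart from both, and at place 7 in MHCC97L-Oxa, where it overlapped TNFRSF11B. TNFRSF1A made up 48.8% of the summed FPKM of the 10 genes in the parental line, 53.2% in MHCC97L-Oxa and 60.5% in MHCC97L-Src, and TNFRSF12A 35.7%, 25.5% and 17.7%.

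The genes closest to TNFRSF1B in pattern were sought among 12231 genes by the root mean square difference of log2 CPM, centred on the mean of the 9 libraries. The closest was LOC101927503, an uncharacterized gene listed in RefSeq as LINC02688, at 0.462. Its counts were 10, 10 and 10 in the parental line, 46, 32 and 59 in MHCC97L-Oxa and 788, 921 and 804 in MHCC97L-Src. Next came CLDN4, a tight junction claudin, at 0.839, with 29, 48 and 29 counts in the parental line, 88, 113 and 81 in MHCC97L-Oxa and 435, 490 and 451 in MHCC97L-Src. S100A9, a calcium-binding protein abundant in neutrophils, followed at 0.886, with 15, 13 and 12 counts in the parental line, 238, 248 and 250 in MHCC97L-Oxa and 628, 602 and 688 in MHCC97L-Src. PTGS1 (cyclooxygenase-1) at 0.918 and CHGB (chromogranin B, a protein of secretory granules) at 0.936 completed the 5. PTGS1 had 114 to 131 counts in the parental libraries and 2022 to 2292 in MHCC97L-Src, and CHGB 1 to 4 and 65 to 143. All 5 were lowest in MHCC97L, and they were chosen for this likeness. Of the other 9 receptor genes CD40 was nearest, at 1.86, and TNFRSF12A farthest, at 2.87.

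**Figure D4:**
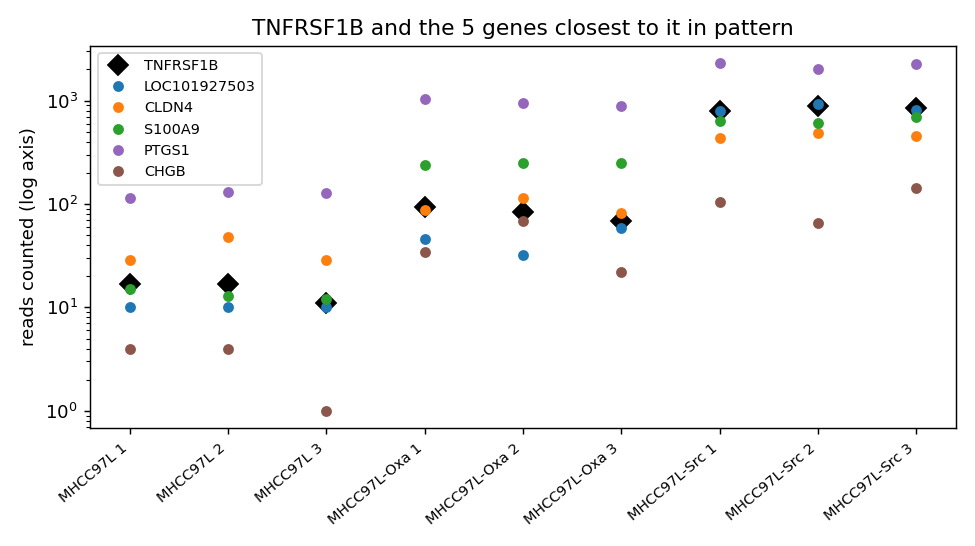
Reads counted per library on a log axis for TNFRSF1B (diamonds) and the 5 genes with the smallest root mean square difference from it (dots). LOC101927503 has 788 to 921 counts where TNFRSF1B has 799 to 880, and all 6 genes are lowest in MHCC97L.

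Of 19 other TNF receptor family genes, 8 had more than 3 counts in every library and 4 were at 0 in all of them. In MHCC97L-Src 9 were tested, of which 1 rose and none fell. This was TNFRSF9 (4-1BB, a costimulatory receptor of T cells), with 5, 7 and 9 counts in the parental line against 54, 23 and 42 in the resistant one (log2 fold change 2.57, SE 0.52, edgeR adjusted p = 0.0463). In MHCC97L-Oxa 8 were tested and 2 rose. TNFRSF9 had 67, 44 and 37 counts there (log2 fold change 2.79, SE 0.48, adjusted p = 0.0428). NGFR, the neurotrophin receptor p75 with a death domain, went from 43, 70 and 35 counts to 326, 370 and 356 (log2 fold change 2.81, SE 0.42, adjusted p = 0.0309). In MHCC97L-Src NGFR had 167, 244 and 233 counts (log2 fold change 2.22, SE 0.48, adjusted p = 0.0537), which missed the threshold. Of 16 alternatives 10 called it, among them the fit without MHCC97L replicate 1, at 2.12, where 5.52% of all genes were called. An unadjusted p under 0.05 was met by 3 of 9 in MHCC97L-Src and 2 of 8 in MHCC97L-Oxa, beside 29.5% and 22.4% of all genes. DESeq2 called TNFRSF9 and NGFR in both resistant lines, where it called 17.6% and 7.4% of all genes. The resistant lines and MHCC97L did not overlap for either gene. Between the resistant lines none of 9 was called by edgeR or by DESeq2, and 3 had an unadjusted p under 0.05. The median log2 fold change of the tested genes was 0.65 in MHCC97L-Src and 0.26 in MHCC97L-Oxa. Leaving out MHCC97L replicate 3 or any library of the resistant line ended the calls of TNFRSF9 in both lines and of NGFR in MHCC97L-Oxa, at log2 fold changes of 2.32 to 2.83, 2.50 to 3.01 and 2.62 to 2.86. Those fits called 0.18% to 0.563% of all genes in MHCC97L-Src and at most 0.0164% in MHCC97L-Oxa.

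The ligands of these receptors were mostly scarce. TNF had 0, 0 and 1 counts in the parental line, 0, 1 and 0 in MHCC97L-Oxa and 2, 0 and 3 in MHCC97L-Src, none above the floor of 3 counts. FASLG, the ligand of FAS, was at 0 in all 9 libraries, and TNFSF12 (TWEAK), the ligand of TNFRSF12A, had 1 count in 1 library. TNFSF10 (TRAIL) was present, with 526, 65 and 205 counts in the parental line, 325, 275 and 287 in MHCC97L-Oxa and 272, 156 and 247 in MHCC97L-Src. The MHCC97L libraries spanned all of the others, and the log2 fold changes were -0.09 (SE 0.64, adjusted p = 0.935) in MHCC97L-Src and 0.21 (SE 0.62, adjusted p = 0.849) in MHCC97L-Oxa. The 526 counts were those of MHCC97L replicate 1. Over the 16 alternatives the values ran from -0.48 to 1.15 and from -0.16 to 1.19, in this order, and TNFSF10 was called in none. Of 19 ligands 10 did not exceed the floor in any library. Of the 7 tested, none was called by edgeR in any comparison. In MHCC97L-Src 3 had an unadjusted p under 0.05 and DESeq2 called 1, TNFSF13, named here after its values were seen, where 29.5% and 17.6% of all genes did so. In MHCC97L-Oxa 1 had an unadjusted p under 0.05 and DESeq2 called 0, and between the resistant lines the counts were 2 and 0.

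Of 26 genes of receptor-proximal signaling, the adaptors, ligases and proteases at the cytoplasmic side, 24 were tested and none was called against MHCC97L by edgeR. In MHCC97L-Src 10 of the 24 had an unadjusted p under 0.05, beside 29.5% of all genes, and DESeq2 called 2, beside 17.6%. These were BIRC2 and XIAP, both lower and named after their values were seen. In MHCC97L-Oxa the counts were 6 and 0, beside 22.4% and 7.4% of all genes. The adaptor TRADD had 238, 361 and 370 counts in the parental line, 593, 532 and 510 in MHCC97L-Oxa and 525, 596 and 454 in MHCC97L-Src (log2 fold change 0.82, SE 0.36, adjusted p = 0.168 in MHCC97L-Src, and 0.74, SE 0.31, adjusted p = 0.216 in MHCC97L-Oxa, called at 0.62 without MHCC97L replicate 1, as were 18.5% of all genes). The death domain adaptor FADD had log2 fold changes of 0.48 (SE 0.30, adjusted p = 0.291) in MHCC97L-Src and 0.38 (SE 0.27, adjusted p = 0.373) in MHCC97L-Oxa. TRAF2, which binds TNFR2 directly, had 0.43 (SE 0.28, adjusted p = 0.318) and 0.03 (SE 0.26, adjusted p = 0.954) in the same order. The initiator caspase CASP8 had -0.53 (SE 0.51, adjusted p = 0.494) in MHCC97L-Src and -0.48 (SE 0.38, adjusted p = 0.437) in MHCC97L-Oxa. BIRC3 (cIAP2), a ubiquitin ligase of the TNF receptor complexes, had 110, 8 and 74 counts in the parental line, 4, 8 and 15 in MHCC97L-Oxa and 11, 18 and 11 in MHCC97L-Src. MHCC97L replicate 2 lay among the resistant lines (log2 fold change -2.08, SE 0.81, adjusted p = 0.140 in MHCC97L-Src, and -2.77, SE 0.89, adjusted p = 0.187 in MHCC97L-Oxa). Without that library BIRC3 was called lower in both, at -2.54 and -3.2. In those fits 27.8% and 22.1% of all genes were called, and no other of 14 alternatives called BIRC3.

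MAP3K14 (NIK), the kinase of the noncanonical NF-κB pathway that TNFR2 and CD40 can engage, was the gene of this list that differed between the resistant lines. It had 733, 863 and 731 counts in MHCC97L-Oxa and 1259, 1372 and 1209 in MHCC97L-Src, without overlap, and 925, 1356 and 1475 in the parental line. MHCC97L-Src was higher by a log2 fold change of 0.84 (SE 0.14, adjusted p = 0.00904). The call was lost without MHCC97L-Src replicate 1, MHCC97L-Oxa replicate 1 or MHCC97L-Oxa replicate 3, at 0.80 to 0.86. Those fits called 1.71%, 2.0% and 1.9% of all genes, against 4.64% with all libraries. Compared to MHCC97L the log2 fold changes were 0.14 (SE 0.28) in MHCC97L-Src and -0.70 (SE 0.27) in MHCC97L-Oxa, neither of them called, and the latter was -0.82 and called without MHCC97L replicate 1, where 18.5% of all genes were.

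Of 8 core NF-κB genes, all tested, none was called by edgeR in any comparison. In MHCC97L-Src 3 had an unadjusted p under 0.05 and DESeq2 called 1, CHUK, which was lower and is named after its values were seen, beside 29.5% and 17.6% of all genes. In the other comparisons both counts were 0. NFKB1, the precursor of the p50 subunit, had log2 fold changes of -0.26 (SE 0.32, adjusted p = 0.594) in MHCC97L-Src and -0.15 (SE 0.29, adjusted p = 0.758) in MHCC97L-Oxa. Of 14 genes that NF-κB is known to induce, 10 were tested and 1 rose in each resistant line. It was IER3, an immediate early gene, with 1567, 2165 and 2408 counts in the parental line, 5581, 5736 and 5429 in MHCC97L-Oxa and 5629, 5981 and 5264 in MHCC97L-Src. Both resistant lines lay above MHCC97L and overlapped each other. The log2 fold change was 1.57 (SE 0.27, adjusted p = 0.0241) in MHCC97L-Src and 1.44 (SE 0.23, adjusted p = 0.0387) in MHCC97L-Oxa, and both calls were lost without MHCC97L replicate 3 or any library of the resistant line, at 1.48 to 1.70 and 1.43 to 1.57. Those fits called at most 0.563% of all genes in MHCC97L-Src and 0.0164% in MHCC97L-Oxa. In MHCC97L-Src 4 of the 10 had an unadjusted p under 0.05, and the 4 called by DESeq2 were IER3, NFKBIE and TNFAIP3, which were higher, and IL6, which was lower, where DESeq2 called 17.6% of all genes. In MHCC97L-Oxa these counts were 2 and 1, the latter being IER3, beside 22.4% and 7.4%. NFKBIE, TNFAIP3 and IL6 are named after their values were seen. The median log2 fold change of the 10 genes was 0.36 in MHCC97L-Src and 0.15 in MHCC97L-Oxa. Between the resistant lines none was called by edgeR or DESeq2, and 5 had an unadjusted p under 0.05.

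Receptor shedding was examined in 5 genes, since ADAM17 cleaves both TNF and its receptors from the cell surface. None was called by edgeR. In MHCC97L-Src 4 had an unadjusted p under 0.05 and DESeq2 called 1, ADAM10, which was lower, beside 29.5% and 17.6% of all genes. In MHCC97L-Oxa the counts were 2 and 1, the latter being TIMP3, which was higher, and between the resistant lines they were 3 and 0. Both genes are named after their values were seen. ADAM17 had 1024, 109 and 218 counts in the parental line, 154, 191 and 154 in MHCC97L-Oxa and 125, 97 and 115 in MHCC97L-Src. The high value was that of MHCC97L replicate 1, and the log2 fold changes were -1.83 (SE 0.73, adjusted p = 0.143) in MHCC97L-Src and -1.37 (SE 0.72, adjusted p = 0.265) in MHCC97L-Oxa. Without MHCC97L replicate 2, ADAM17 was called lower in both, at -2.22 and -1.74, in fits that called 27.8% and 22.1% of all genes. It was called in no other of the 16 alternatives. Over these its log2 fold change ran up to -0.10 in MHCC97L-Src and to 0.08 in MHCC97L-Oxa. The median log2 fold change was 0.32 and 0.34 for shedding, 0.52 and 0.21 for the ligands, -0.24 and -0.46 for receptor-proximal signaling and 0.11 and 0 for core NF-κB, in MHCC97L-Src and MHCC97L-Oxa.

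**Figure D5:**
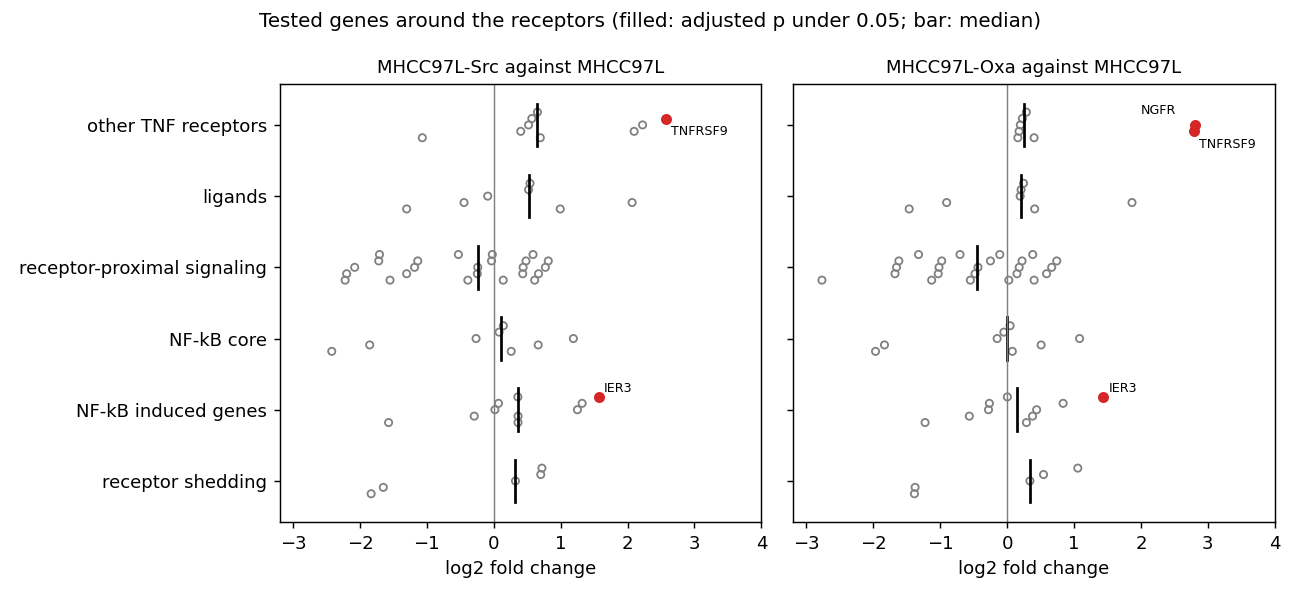
Log2 fold change of each tested gene of the 6 lists around the receptors in the comparisons with MHCC97L, with called genes filled and named and a bar at the median of each list. TNFRSF9 and IER3 were called in both lines and NGFR in MHCC97L-Oxa, and the medians lie between -0.46 and 0.65.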

How the data were processed

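The authors deposited raw read counts per gene and, for the same 9 libraries, FPKM values per gene. Per the labels, poly(A) RNA was made into stranded libraries and read from both ends. The submitters' processing notes name Trimmomatic 0.36, HISAT2 2.2.1.0 and the genome build GRCh38.p12. The counting program and its strand setting are not given in the sources used here. Libraries were grouped by the treatment in their labels, and the members and lists of genes were chosen with earlier results of these data known.

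Each pair of lines was compared on the counts of its 6 libraries by edgeR's quasi-likelihood test, with filterByExpr (minimum count of 10), TMM normalization and Benjamini-Hochberg adjustment over all genes tested. Standard errors were taken as the log2 fold change over the square root of F. Genes were named by rule: all members, up to 6 called genes per list and comparison with the largest change, and TNF, TNFSF10, TNFSF12, FASLG, TRADD, FADD, TRAF2, CASP8, BIRC3, NFKB1 and ADAM17. Log2 CPM used a prior count of 2. The floor of 3 counts covers counting error only. Between 245 and 297 genes of a library had reads counted and an FPKM of 0.

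Alternatives were DESeq2's size factors and Wald test, no filter, a replicate block, all 9 libraries in 1 fit, splines (5 df) for GC content and length, found for 19343 genes, limma-trend on log2 FPKM with a pseudocount of 1 or 0.1 and a filter at 0.5 FPKM in 3 libraries or none, and leaving out each library. Scripts were tested on simulated data. The software was edgeR 4.0.16, DESeq2 1.42.0 and limma 3.58.1 in R 4.3.3, with matplotlib 3.10.9 and pandas 2.3.3 in Python 3.11.15. Promoters were from RefSeq, matched for 4 of the 10 members, and loci from GENCODE on GRCh38.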

Additional observations from a re-analysis of the deposited data

Results flagged for a closer look

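Of the receptor genes and the lists around them, including the cell type markers, 9 genes were called by edgeR's test of MHCC97L-Src against MHCC97L-Oxa. That test called 4.64% of all genes. The calls were 1 of 10 members and 1 of 24 tested genes of receptor-proximal signaling. Of the tested markers they were 2 of 3 for hepatocytes, 2 of 4 for leukocytes, 1 of 2 for endothelium and 2 of 4 for fibroblasts. TNFRSF1B was higher in MHCC97L-Src by a log2 fold change of 3.47 (SE 0.18) and MAP3K14 by 0.84 (SE 0.14). Among the markers, the log2 fold change was 4.61 for CDH5, 0.91 for KRT18, 0.87 for KRT8, -0.75 for CD68, -1.32 for PDGFRB, -1.57 for CSF1R and -1.89 for DCN. In each of the 9 genes the CPM ranges of the resistant lines did not overlap, as in 26.7% of all genes tested, and called genes tend to have this trait. The values of TNFRSF1B were among those that led to its choice. The cause of these differences was not tested.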

How the results depend on the processing

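The log2 fold change of TNFRSF1B kept its sign in all 16 alternatives of each comparison. The gene was chosen for its level in these libraries, so this is a description and no support. It was 5.55 in MHCC97L-Src with the correction for GC content and length and 5.57 with that correction and the replicate block. On FPKM it was 2.89 with a pseudocount of 1, with or without the filter, and 5.02 with 0.1 in MHCC97L-Src, 0.59 and 1.78 in MHCC97L-Oxa, and 2.31 and 3.23 between the resistant lines, where a pseudocount shrinks the change of a gene of low FPKM by construction. With 1 library left out it was 5.74 to 6.12, 2.27 to 2.67 and 3.36 to 3.57.

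The number of members called changed more, and so did the share of all genes called, which in MHCC97L-Src was 2.13% in the fit reported, 17.6% by DESeq2, 8.21% with the replicate block, 16% with all 9 libraries and 10.6% with the GC correction. In MHCC97L-Oxa it was 0.953%, 7.4%, 0.763%, 4.05% and 12.9% in this order, and between the resistant lines 4.64%, 7.0%, 3.39%, 0.703% and 9.62%. With 1 library left out the share was 0.18% to 27.8% in MHCC97L-Src, 0.0163% to 22.1% in MHCC97L-Oxa and 1.38% to 13.3% between the resistant lines. The cause was not tested. In MHCC97L-Src the number of members called was 1 in the fit reported, 2 by DESeq2, with the replicate block, with the GC correction plus block and on unfiltered FPKM, 3 with all 9 libraries or the GC correction, and 1 to 2 with 1 library left out. In MHCC97L-Oxa it was 2 by DESeq2, 3 with the GC correction with or without block, 0 with the replicate block and on filtered FPKM, and 0 to 3 with 1 library left out. Between the resistant lines it was 3 by DESeq2, 4 with the GC correction with or without block, 2 without a filter and on FPKM, and 1 to 3 with 1 library left out. Called genes of the other lists numbered 2 in MHCC97L-Src (11 by DESeq2, 4 with the replicate block, 10 with all 9 libraries, 6 with the GC correction, 1 with that and the block and on unfiltered FPKM, 0 to 19 with 1 library left out), 3 in MHCC97L-Oxa (6 with the GC correction, 0 to 17) and 1 between the resistant lines (0 with all 9 libraries, 3 with the GC correction, 2 on FPKM, 0 to 4). The 19 and 17 were without MHCC97L replicate 2, where 27.8% and 22.1% of all genes were called.

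No pairing of the libraries by replicate number is stated. Same-numbered libraries correlated at 0.171, 0.217 and -0.65 in their deviations for MHCC97L-Src and MHCC97L. For MHCC97L-Oxa and MHCC97L the values were -0.215, -0.134 and 0.444. Because deviations were taken from the mean of only 3 libraries, these values cannot show or exclude a pairing. Under the block 988 genes were called in MHCC97L-Src instead of 256. Counts under 20, as for TNFRSF1B and CD40 in MHCC97L, limit the precision of their fold changes.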
